A study of Mus musculus with 12 samples.

Results

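The 6 genes described here were put forward as candidates with a lower signal in ventricles without Hdac2: Ctsc, Ank, Paqr9, Cavin4 (also listed as Murc), Antxr2 and Klhl32. They were chosen by their difference between the 6 arrays without Hdac2 and the 6 arrays with it. That difference is therefore given as a description, with no p-value, and only other comparisons are tested. Klhl32 and others were first listed from the Hdac2-null arrays against the wild type arrays. Some tested comparisons share those arrays, so for these genes they are not independent of the choice. The 6 genes belong to 18193 genes that have a probe set annotated to a single gene, and all 6 were among the 9667 genes tested.

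RNA came from the cardiac ventricle of mouse embryos at embryonic day 16.5, with 1 Affymetrix array per ventricle and 3 independent ventricles per genotype. The 4 genotypes were double-null (Hdac2 and Hopx both lost), Hdac2-null, Hopx-null and wild type. The labels give neither the way the null alleles were made nor the strain, the litters or the sex of the embryos. Values are signals in the deposited linear units. For each log2 difference, signals under a floor of 82.5 units were first raised to that floor. The floor is a convention, not a measured background.

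Hdac2 encodes a class I histone deacetylase, an enzyme that removes acetyl groups from histone tails as part of larger repressor complexes. Hopx encodes an atypical homeodomain factor that lacks DNA binding of its own and is known to work with histone deacetylases in the heart. Histone acetylation is generally associated with active transcription. The 6 genes have little in common by function: a lysosomal protease, a pyrophosphate transporter, a membrane receptor of the progestin and adipoQ family, a coat protein of muscle caveolae, a receptor for extracellular matrix and a BTB-Kelch protein.

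The targeted genes followed the labels. Hdac2 averaged 4.15 ± 0.15 units on double-null and 4.05 ± 0.0049 on Hdac2-null arrays, against 4903 ± 679 on Hopx-null and 4839 ± 314 on wild type arrays (SD, n = 3 each). Hopx averaged 1699.7 ± 38.6 units on double-null and 1992 ± 111 on Hopx-null arrays, against 12042 ± 317 on Hdac2-null and 9817 ± 2082 on wild type arrays by its brighter probe set (SD, n = 3 each). Its dimmer probe set read 9.7 to 13.3 units on the arrays without Hopx and 520.2 to 1558 on those with it. Correlations of log2 signal between arrays were 0.992 to 0.998, and 37.5% to 37.9% of probe sets exceeded the floor on each array. Summed cardiomyocyte markers, 10 of 10 above the floor on all arrays, lay between 288203 and 297149 units throughout. The largest part, Tnnt2, averaged 41384.7 to 42304.9 units by genotype, near the highest signal of any probe set, 44615.5. Such a sum can miss a change in cardiomyocyte content.

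The stretch before the gene's start was read to show what sequence stands there for Ctsc and Cavin4, whose arrays separate by Hdac2, and for Antxr2 and Klhl32, whose arrays do not. RefSeq promoters of build GRCm38.p6 matched 5 of the 6 genes. The 250 bases before the start are printed 5′ to 3′ on the gene's strand for Ctsc (chr7:88277835-88278084, plus strand), Cavin4 (chr4:48663264-48663513, plus), Antxr2 (chr5:98031018-98031267, minus) and Klhl32 (chr4:24851125-24851374, minus). Capitals mark every match, on either strand, to the motif TATAAA, the motif GGGCGG or the motif CANNTG.
Ctsc: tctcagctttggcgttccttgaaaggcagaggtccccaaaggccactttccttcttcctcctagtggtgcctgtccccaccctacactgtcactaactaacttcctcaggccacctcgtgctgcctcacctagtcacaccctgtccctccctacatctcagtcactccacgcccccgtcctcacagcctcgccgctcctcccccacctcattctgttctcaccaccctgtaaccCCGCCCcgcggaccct
Cavin4: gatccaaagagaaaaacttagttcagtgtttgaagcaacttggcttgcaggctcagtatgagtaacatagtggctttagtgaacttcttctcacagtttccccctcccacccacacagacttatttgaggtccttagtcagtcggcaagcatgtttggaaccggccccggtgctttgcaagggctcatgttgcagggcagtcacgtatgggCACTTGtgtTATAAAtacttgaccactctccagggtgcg
Antxr2: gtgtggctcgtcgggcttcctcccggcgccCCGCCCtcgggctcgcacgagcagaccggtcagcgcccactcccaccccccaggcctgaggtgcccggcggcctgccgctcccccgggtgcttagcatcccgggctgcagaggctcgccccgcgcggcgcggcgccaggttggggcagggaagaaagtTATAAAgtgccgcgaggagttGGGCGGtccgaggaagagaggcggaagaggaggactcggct
Klhl32: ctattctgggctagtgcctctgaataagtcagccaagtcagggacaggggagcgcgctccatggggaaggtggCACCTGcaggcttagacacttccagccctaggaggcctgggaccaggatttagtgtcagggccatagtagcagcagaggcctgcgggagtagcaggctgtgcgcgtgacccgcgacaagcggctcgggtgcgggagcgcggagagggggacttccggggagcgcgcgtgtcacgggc
The Cavin4 stretch holds TATAAA starting 30 bases before the start and CANNTG at 39 bases. The Antxr2 stretch holds TATAAA at 62 bases and GGGCGG at 220 and 41 bases. Ctsc has GGGCGG at 16 bases and Klhl32 has CANNTG at 177 bases. Among 32536 RefSeq promoters of this length, 12.3% hold TATAAA, 33.0% hold GGGCGG and 66.2% hold CANNTG. The motif GATAA, found in 22.5% of promoters, the CArG box, in 1.48%, and the MEF2 site, in 2.89%, were not found in any of the 5 stretches. GC content was 60.4% for Ctsc, 81.2% for Ank, 48.8% for Cavin4, 72.8% for Antxr2 and 65.2% for Klhl32, against a median of 52.4% over all promoters. The number of CpG pairs ran from 5 in Cavin4 and 9 in Ctsc to 17 in Klhl32, 28 in Antxr2 and 49 in Ank, against a median of 6. No motif searched was found in all 5 stretches, and their CpG content covered a wide range.

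Ctsc, cathepsin C, is the lysosomal dipeptidyl peptidase that activates the serine proteases of immune cell granules. It read 448, 447 and 471 units on double-null arrays and 415, 495 and 436 on Hdac2-null arrays, against 651, 599.8 and 583 on Hopx-null and 669, 624 and 618 on wild type arrays. All 6 arrays without Hdac2 lay below all 6 with it, whether Hopx was present or not. The log2 difference was -0.42 for double-null against Hopx-null and -0.51 for Hdac2-null against wild type (SE 0.10 each), and -0.47 (SE 0.07) averaged over both, a signal lower by 27.6%. In bulk tissue, fewer cells of a type and less RNA per cell cannot be told apart. The other Ctsc probe sets read 4.54 to 5.61 units, below the floor on every array.

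Ank encodes a multipass membrane protein that moves pyrophosphate, an inhibitor of mineralisation, out of the cell. It read 1824, 1775 and 2017 units on double-null arrays and 1616, 1435 and 1736 on Hdac2-null arrays, against 2199.6, 2403 and 2437 on Hopx-null and 2530.4, 2565 and 1997 on wild type arrays. The groups met at 1 point, where double-null 3 (2017) stood just above wild type 3 (1997). The log2 difference was -0.33 for double-null against Hopx-null and -0.56 for Hdac2-null against wild type (SE 0.11 each), and -0.44 (SE 0.08) averaged over both.

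Paqr9 belongs to the progestin and adipoQ receptor family of membrane proteins. It read 129, 76.0 and 154 units on double-null arrays and 85.9, 90.6 and 173 on Hdac2-null arrays, against 284, 371 and 398 on Hopx-null and 489, 495 and 202 on wild type arrays. The arrays did not overlap by Hdac2, but the wild type arrays spread widely and double-null 2 was below the floor. The log2 difference was -1.56 for double-null against Hopx-null and -1.73 for Hdac2-null against wild type (SE 0.38 each), and -1.64 (SE 0.27) averaged over both, a signal lower by 68.0%, the widest of the 6 genes in this fit. A second probe set read 26.6, 26.1 and 26.5 units on double-null and 25.9, 32.5 and 35.9 on Hdac2-null arrays, against 42.3, 41.2 and 57.6 on Hopx-null and 175, 205 and 37.2 on wild type arrays. Its signal passed the floor only on wild type 1 and 2, and after the floor its log2 difference was -0.80 for Hdac2-null against wild type and 0 for double-null against Hopx-null (SE 0.25 each).

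Cavin4 encodes a muscle-specific member of the cavin family, which coats caveolae, the small pits of the plasma membrane. It read 1123, 817 and 878 units on double-null arrays and 1013, 986 and 1064 on Hdac2-null arrays, against 1322, 1682 and 1968 on Hopx-null and 1327, 2047 and 1356 on wild type arrays. The arrays did not overlap by Hdac2, and those with Hdac2 spread more among themselves. The log2 difference was -0.81 for double-null against Hopx-null and -0.60 for Hdac2-null against wild type (SE 0.19 each), and -0.71 (SE 0.14) averaged over both.

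Antxr2, a receptor that also binds anthrax toxin, links cells to collagens and laminin of the matrix. It read 3945, 3873 and 4301 units on double-null arrays and 5006, 4940.1 and 5101 on Hdac2-null arrays, against 4268, 5268 and 4976 on Hopx-null and 5911, 4936 and 5310.1 on wild type arrays. The double-null arrays stood low, with Hopx-null 1 (4268) just inside their range, and the Hdac2-null arrays lay inside the range of the arrays with Hdac2. The log2 difference was -0.26 for double-null against Hopx-null and -0.10 for Hdac2-null against wild type (SE 0.09 each), and -0.18 (SE 0.06) averaged over both. The description as lower without Hdac2 fits this gene only in part.

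Klhl32 encodes a BTB-Kelch protein, of a family that includes adaptors of the cullin 3 ubiquitin ligase. It read 25.4, 96.5 and 56.6 units on double-null, 40.3, 14.3 and 78.4 on Hdac2-null and 36.1, 36.0 and 75.8 on Hopx-null arrays, against 124, 139 and 107 on wild type arrays. All 3 wild type arrays were above the floor, with 1 of 3 double-null and none of the Hdac2-null or Hopx-null arrays. Its signal was at least 1.49-fold lower in Hdac2-null and at least 1.49-fold lower in Hopx-null than in wild type ventricles, taking the floor for the arrays below it. Those bounds share the wild type arrays. Double-null against Hopx-null, where most arrays were at the floor, gave +0.08 (SE 0.10) on the log2 scale. The other Klhl32 probe sets read 4.47 to 12.2 units, below the floor on every array. The data therefore put Klhl32 lower on all 9 null arrays than on any wild type array, at a level near the floor, and do not set the double-null below the Hopx-null.

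**Figure D1:**
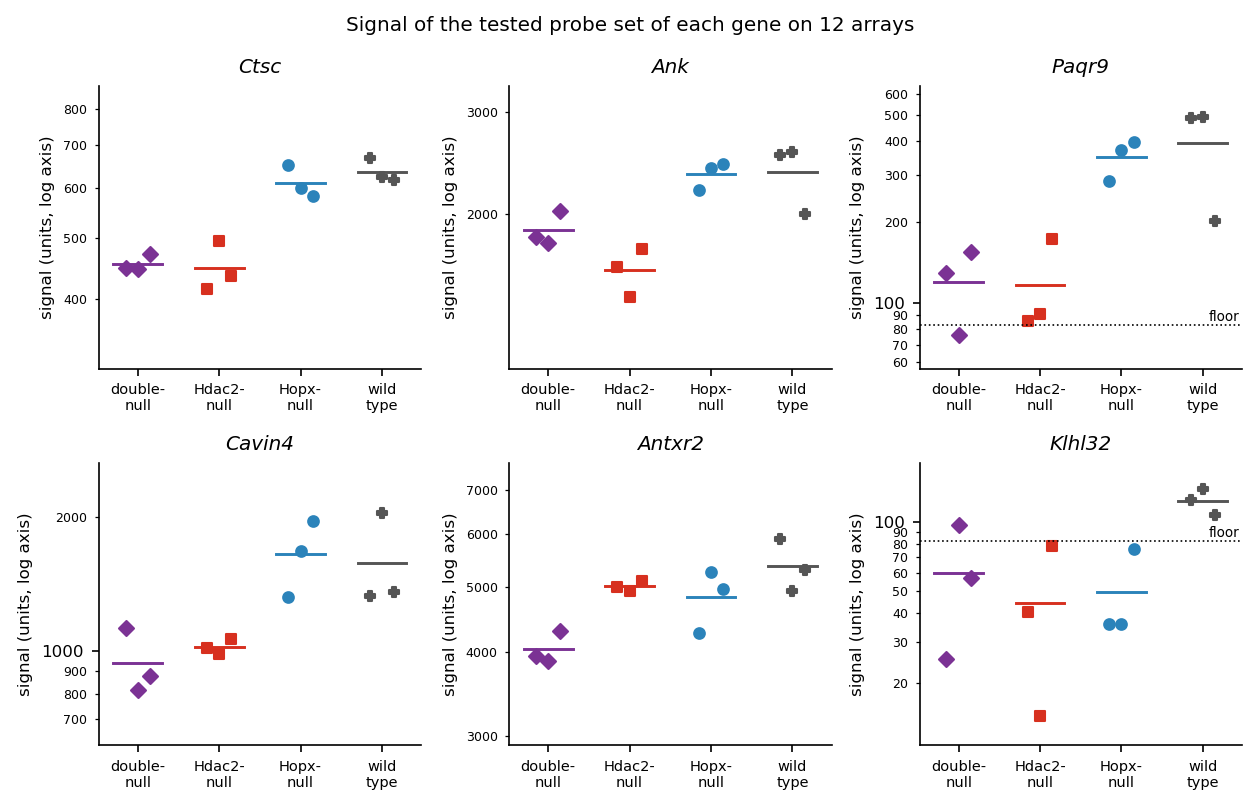
Signal of the tested probe set of each gene in deposited units, on log axes, for 3 arrays per genotype (points, replicates 1 to 3 from left to right) with the mean as a bar and the floor of 82.5 as a dotted line where it falls in range. Ctsc, Paqr9 and Cavin4 separate by Hdac2, Ank meets at 1997 to 2017 units, Antxr2 is lowest on average in the double-null, and Klhl32 is above the floor in wild type and on 1 double-null array.

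Of the 6 genes, 3 had all arrays without Hdac2 below all arrays with it: Ctsc, Paqr9 and Cavin4. Over all genes tested, 26 of 9667 (0.269%) did so. Ordered by the moderated difference, Ctsc stood 2nd, Paqr9 3rd, Ank 5th, Cavin4 8th, Klhl32 64th and Antxr2 160th among genes lower without Hdac2. These places follow from how the genes were chosen, and nothing is read from them. For the same comparison limma called 2 genes over all 9667 (0.0207%) at an adjusted p under 0.05, the targeted Hdac2 and, in the other direction, Tnni2 (fast skeletal troponin I), while 866 genes had an unadjusted p under 0.05.

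Whether loss of Hopx moved the same genes was asked with comparisons other than arrays without Hdac2 against arrays with it. Averaged over both states of Hdac2, loss of Hopx gave log2 differences of -0.02 (SE 0.07) for Ctsc, 0.12 (SE 0.08) for Ank, 0.01 (SE 0.27) for Paqr9 and -0.03 (SE 0.14) for Cavin4. None of these passed the test (limma adjusted p = 0.963, 0.698, 0.996 and 0.975 in that order). Their 95% intervals were -0.17 to 0.13, -0.06 to 0.29, -0.58 to 0.61 and -0.32 to 0.27 in that order, so the interval for Ctsc is narrow and that for Paqr9 still allows a sizeable change. Over all genes, 1 of 9667 (0.0103%) was called for loss of Hopx, Hopx itself, and 844 had an unadjusted p under 0.05.

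Antxr2 and Klhl32 gave the lowest values for loss of Hopx. The log2 difference for Antxr2 was -0.24 (SE 0.06, 95% interval -0.37 to -0.10, limma adjusted p = 0.472), and that for Klhl32 was -0.25 (SE 0.07, 95% interval -0.41 to -0.09, adjusted p = 0.480). Neither passed the adjustment over all genes. Antxr2 was lower on every double-null array than on any Hdac2-null array, at 4040 ± 229 against 5016 ± 81.1 units (SD, n = 3 each), with a log2 difference of -0.31 (SE 0.09). It missed the threshold too (limma adjusted p = 0.368), in a comparison that called 1 of 9667 genes (0.0103%). With weights estimated for each array, the same log2 difference was -0.36 at an adjusted p of 0.0107. That fit called 951 genes and gave double-null 2 a weight of 7.98. Klhl32 differed by -0.57 (SE 0.10) between Hopx-null and wild type ventricles, with an adjusted p of 0.726 by limma, where 1 of 9667 genes (0.0103%) was called. With a floor of 32 or none, that difference was -1.41, and the one for loss of Hopx was -0.57 with a floor of 32 and -0.44 with none, none of them called. Klhl32 was first listed from Hdac2-null against wild type. Hopx-null against wild type uses the same wild type arrays, so its Klhl32 value is not independent of the choice.

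The interaction asks whether loss of Hdac2 had a different effect without Hopx. It was 0.65 (SE 0.14) on the log2 scale for Klhl32, the most positive by moderated difference of the 9667 genes, yet its adjusted p was 0.942 by limma. The floor sets part of this value, since most null arrays were raised to it: it was 1.67 with a floor of 32 and 1.95 with none, at adjusted p of 0.948 and 0.995 by limma. The interaction also uses the Hdac2-null and wild type arrays from which Klhl32 was first listed, so nothing is read from its place. The interaction was 0.08 (SE 0.14) for Ctsc, 0.24 (SE 0.15) for Ank, 0.17 (SE 0.54) for Paqr9, -0.22 (SE 0.27) for Cavin4 and -0.16 (SE 0.12) for Antxr2. No gene was called (0 of 9667, 0%, by limma, with 404 at an unadjusted p under 0.05), so no difference in the effect of Hdac2 between the states of Hopx was shown for any of the 6. A p that misses the threshold does not show that the effects were equal.

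**Figure D2:**
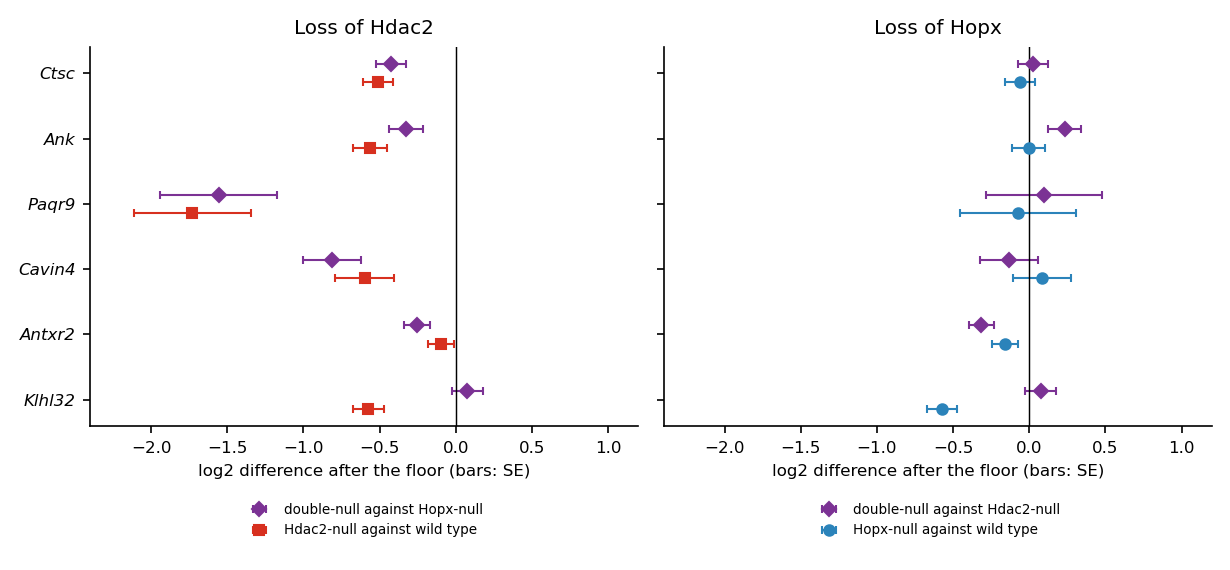
Log2 difference of each gene after the floor, for loss of Hdac2 (left) and loss of Hopx (right) in each state of the other gene, with bars of 1 SE. On the left 4 genes lie at -0.33 or below in both comparisons, and on the right Antxr2 (-0.31 and -0.16) and Klhl32 (0.08 and -0.57) reach farthest below 0.

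Ank and Paqr9 varied together within genotypes. After each genotype's mean log2 signal was subtracted, the deviations correlated at r = 0.90 and rho = 0.89 over 12 arrays. Without the 2 arrays whose Ank deviation lay farthest from its median, r was 0.86. Arrays far out for Paqr9 alone were kept. The other 14 pairs of the 6 genes gave r between -0.45 and 0.49. This pair was picked out after all 15 were seen, and no p-value is attached. Wild type 3 was the lowest wild type array for both genes, and Hdac2-null 3 and double-null 3 were the highest of their groups for both. Wild type 3 was also the only wild type array with low Xist, the RNA of the inactive X chromosome. Hdac2-null 3 had the highest summed liver markers, 617 units. Whether differences between the samples underlie the correlation was not tested.

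**Figure D3:**
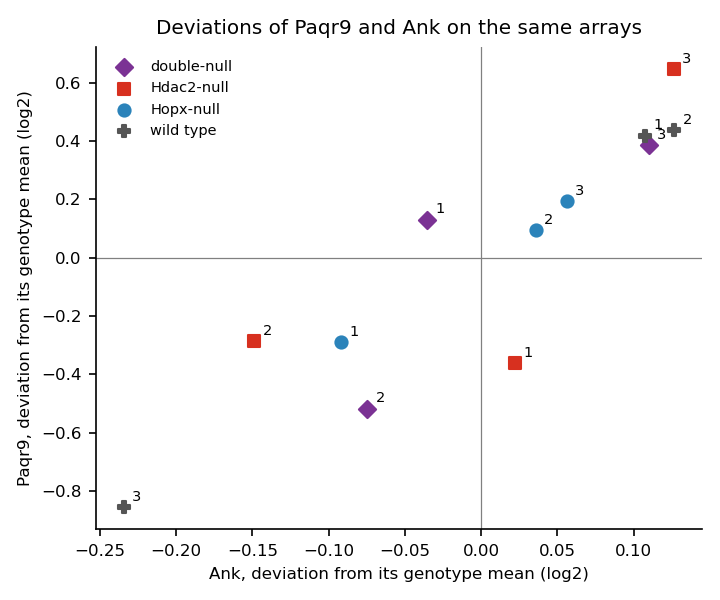
Deviation of Paqr9 (vertical) and Ank (horizontal) from their genotype mean, in log2 units, on 12 arrays numbered by replicate. Wild type 3 lies at -0.85 for Paqr9 and -0.23 for Ank, and Hdac2-null 3 at 0.65 and 0.13.

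For each gene the 3 other tested genes with the highest correlation over the 12 arrays were listed. The measure is Pearson's r of log2 signal, which includes the genotype difference itself, so genes that separate by Hdac2 resemble each other by construction. For Ctsc the first was Hdac2 itself (r = 0.96), then Rab3gap1 and Vps25 (both 0.92). For Ank they were Agtpbp1 (0.93), Cep43 (0.93) and Sspn (0.92), which encodes sarcospan of the dystrophin complex. Sspn averaged 6872 ± 146 units on double-null and 6601 ± 230 on Hdac2-null arrays, against 7317 ± 252 on Hopx-null and 7534 ± 525 on wild type arrays (SD, n = 3 each). For Paqr9 they were Kcnj11 (0.95), the pore subunit of the ATP-sensitive potassium channel, Hint3 (0.94) and the receptor kinase Axl (0.93). Kcnj11 averaged 633 ± 60.6 units on double-null and 629 ± 60.7 on Hdac2-null arrays, against 819.9 ± 56.0 on Hopx-null and 803 ± 86.8 on wild type arrays (SD, n = 3 each).

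For Cavin4 the nearest genes were Cystm1 (0.91), Psmd11 (0.88) and Ostm1 (0.87). Hint3 and Ostm1 lie on the chromosome that carries Hdac2, with 12 and 25 tested genes between them and it, whereas none of the 6 chosen genes does. For Antxr2 the nearest were Spink4 (0.88), Ncoa4 (0.87), whose protein delivers ferritin for breakdown, and Tmem107 (0.83). Ncoa4 averaged 3160 ± 221 units on double-null and 3685 ± 199.5 on Hdac2-null arrays, against 3431 ± 272 on Hopx-null and 3771 ± 193 on wild type arrays (SD, n = 3 each), an order that puts the double-null lowest as for Antxr2. For Klhl32 they were Zmynd8 (0.84), Dtx4 (0.83) and Asb18 (0.80), each with its highest mean in wild type.

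Related genes were taken from 7 lists of pathway partners, with 75 of 108 genes tested. None was called for loss of Hdac2 by limma (12 had an unadjusted p under 0.05), and the lowest adjusted p was 0.292, for Ehd1. Without wild type 3, where 27 genes were called, Ehd1 passed at a log2 difference of -0.20 (limma adjusted p = 0.0447). The median log2 difference of the 75 was -0.02, beside -0.01 over all genes, and 45 were below 0, beside 55.3% of all genes. None was called for loss of Hopx (lowest limma adjusted p = 0.512) or for the interaction (0.942) either.

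Among caveolar genes, 11 of 14 were tested and 8 were below 0, with a median of -0.02. Ehd1, an ATPase of the EHD family, differed by -0.17 on the log2 scale and Cav1, the main caveolin of many cells, by -0.02. The other cavins were not lower as Cavin4 was: Cavin1 and Cavin3 each differed by 0.19 and Cavin2 by -0.0013. Cav1 averaged 16240 ± 1406 units on double-null and 14898 ± 996 on Hdac2-null arrays, against 15776 ± 541 on Hopx-null and 15614 ± 358 on wild type arrays (SD, n = 3 each), which overlap. Among cathepsins and lysosomal peptidases, 12 of 18 were tested and 9 were below 0, with a median of -0.09. Lgmn, the asparaginyl endopeptidase, differed by -0.28, Ctsd by -0.13 and the abundant Ctsb by -0.0041. Of 8 granule serine proteases, the known substrates of cathepsin C among them, 1 was tested, the mast cell chymase Cma1, at 0.19.

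Of 10 receptors related to Paqr9, 7 were tested and 5 were below 0. Paqr7, a membrane progestin receptor, differed by -1.14 (SE 0.44, limma adjusted p = 0.529) and Adipor1, an adiponectin receptor, by -0.06. Paqr7 averaged 299.9 ± 171 units on double-null and 338 ± 220.1 on Hdac2-null arrays, against 629 ± 17.5 on Hopx-null and 533 ± 106 on wild type arrays (SD, n = 3 each), so the spread without Hdac2 was large. Of 14 genes of pyrophosphate and phosphate handling, 9 were tested and 5 were below 0. Enpp3, an ectonucleotide pyrophosphatase, differed by -0.94 and Nt5e, the enzyme that makes adenosine outside cells, by -0.41 (limma adjusted p = 0.549 and 0.529 in that order). Enpp3 averaged 648 ± 255 units on double-null and 275 ± 293 on Hdac2-null arrays (SD, n = 3 each). It averaged 637 ± 60.0 on Hopx-null and 676 ± 141 on wild type arrays, so only its Hdac2-null mean was low.

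Of 14 partners of the anthrax toxin receptors, 12 were tested and 11 were below 0, with a median of -0.05. Col6a2, a chain of collagen VI, differed by -0.10 (limma adjusted p = 0.423) and Col4a1, a chain of collagen IV, by -0.01. Of 31 BTB-Kelch and cullin 3 genes, 23 were tested and 16 were above 0, with a median of 0.04. Klhl42 differed by 0.26 and Klhl7 by 0.25 (limma adjusted p = 0.407 and 0.452 in that order), opposite in sign to Klhl32.

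**Figure D4:**
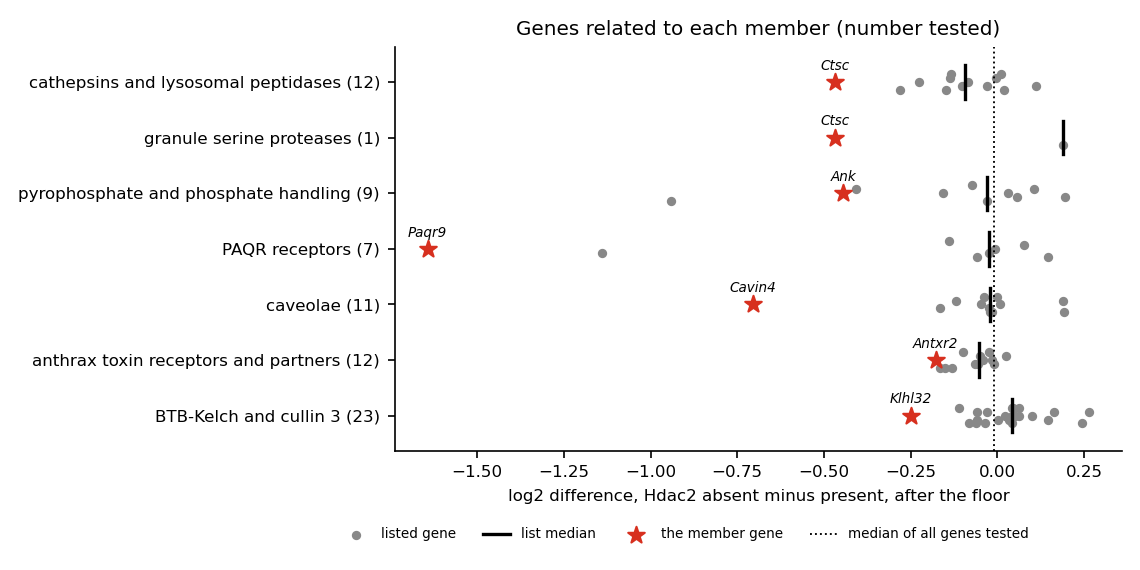
Log2 difference between arrays without and with Hdac2, after the floor, for the tested genes of 7 lists (grey points, numbers tested in brackets), with the list median (black bar), the gene among the 6 to which the list belongs (red star) and the median of all genes (dotted line). All of the 6 genes lie left of their list medians, which run from -0.09 to 0.19, a place that follows from how they were chosen.

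Markers of other cells were set beside the genes those cells could supply. Macrophage and leukocyte markers, of which 8 of 17 were above the floor on all arrays and 9 on none, summed to 15541 to 17821 units on double-null and 14654 to 17121 on Hdac2-null arrays, against 18322 to 20285 on Hopx-null and 16629 to 23202 on wild type arrays. Like Ctsc, these sums were lower on the arrays without Hdac2 than on those with it, wild type 3 excepted. Among the arrays without Hdac2 they did not follow Ctsc. Hdac2-null 2 had the lowest sum of the 12 arrays, 14654, with Ctsc at 495 units, its highest value without Hdac2. Of the 8 markers tested, 7 were lower without Hdac2 and 5 had an unadjusted p under 0.05, with none called by limma, and their median log2 difference was -0.18, beside -0.01 over all genes. Hdac2-null 3 and double-null 2 had sums of 17121 and 17821 with Ctsc at 436 and 447 units, while wild type 3 had a sum of 16629 with Ctsc at 618. The markers were split on wild type 3. Csf1r, the receptor that macrophages need, read 4689 units there, against at most 4141 on the arrays without Hdac2. Tyrobp read 392, against at most 374 on those arrays, and Cd53 read 1552, the highest of the 12. Mrc1 read 766, the lowest of the 12. C1qb, a complement subunit and the largest part of the sum, read 6675 units. Fcer1g, Laptm5 and Lyz2 read 542, 1594 and 320, like C1qb inside the range of the arrays without Hdac2. The part of these cells in the Ctsc difference was not tested.

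Endothelial markers, 8 of 8 above the floor on all arrays, summed to 14381 to 14705 units on double-null and 15756 to 16123 on Hdac2-null arrays, against 14634 to 16273 on Hopx-null and 14770 to 16837 on wild type arrays. As with Antxr2, the double-null arrays were low. Each marker had its lowest mean in the double-null except Cdh5, at 1212 units there and 1167 in the Hdac2-null. Tek was the largest part of the sum. Fibroblast markers, 8 of 8 above the floor on all arrays, were not lowest in the double-null. They summed to 71079 to 75813 units on double-null and 69144 to 71468 on Hdac2-null arrays, against 71305 to 77128 on Hopx-null and 72689 to 75971 on wild type arrays. Hopx-null 3 had an endothelial sum of 14634, inside the double-null range, with Antxr2 at 4976 units. The part of endothelial cells or fibroblasts in the Antxr2 values was not tested. Skeletal muscle markers, 2 of 8 above the floor on all arrays and 6 on none, summed to 6983 to 8279 units on double-null and 7920.0 to 10048 on Hdac2-null arrays, against 8549 to 9836 on Hopx-null and 7997 to 10791 on wild type arrays. The 2 were Acta1 and Ckm, which make up nearly all of each sum. Myod1, Myog, Myh3, Myh8, Tnnt3 and Tnnc2 gave no signal above the floor. The sums therefore describe Acta1 and Ckm and not the list as a whole. Their ranges overlap between the genotypes, and the part of skeletal muscle in the Cavin4 difference was not tested.

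**Figure D5:**
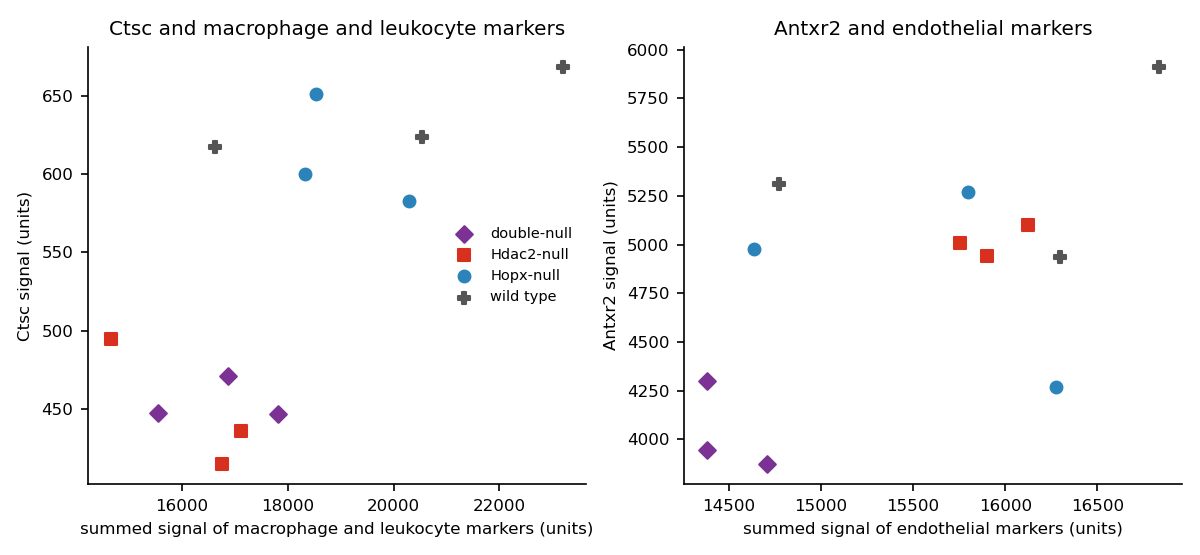
Signal of Ctsc against summed macrophage and leukocyte markers (left) and of Antxr2 against summed endothelial markers (right), in deposited units, with 1 point per array. On the left both measures are lower on most arrays without Hdac2, with wild type 3 at a low marker sum of 16629. On the right the 3 double-null arrays sit at the low end of both axes. Hopx-null 3 joins them on the marker axis and Hopx-null 1 on the signal axis.

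Sex differed between arrays and was not balanced. Xist, the RNA of the inactive X chromosome, read 4988 to 6130.4 units on 5 arrays (wild type 1 and 2 and replicate 1 of each null group) and at most 22.2 units on the other 7. With Xist as a factor, the log2 difference by Hdac2 was -0.47 for Ctsc, -0.44 for Ank, -1.62 for Paqr9, -0.70 for Cavin4, -0.19 for Antxr2 and -0.24 for Klhl32. Within the arrays with high Xist, where each null group had 1 array, the differences in that order were -0.59, -0.46, -1.83, -0.47, -0.11 and -0.33. Within the arrays with low Xist, where wild type had 1 array, they were -0.39, -0.35, -1.23, -0.75, -0.20 and -0.13.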

How the data were processed

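The measure is a linear intensity for each probe set on each array, computed by the authors and deposited as 1 table. Per the submitters' processing notes MAS5 was used, with no version; how signals were summarised and normalized is otherwise not given in the sources used here. Of all values, 48.6% lie within 1 unit of 4.5, a shape known from model-based summaries, so the method behind the table is not settled. No further normalization was applied. By the platform's annotation 34945 probe sets belong to 1 gene, 932 to more and 9160 to none. Those of 1 gene were used, and 34741 symbols were matched through gene identifiers. Each of 18193 genes was read from its brightest probe set by mean log2. Of these, 12433 reached the 40th percentile (4.76 units), and 2766 at the floor on all 12 arrays were left out, which left 9667. The floor of 82.5 units is 0.1 times the mean of the 2% trimmed means; where it raised arrays, a log2 difference understates the change.

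One coefficient per genotype was fitted over 12 arrays with limma 3.58.1 in R 4.3.3 (intensity trend, 8 residual degrees of freedom). P-values were adjusted by Benjamini-Hochberg over all 9667 genes in each comparison, and a call is an adjusted p under 0.05. Loss of Hdac2 is the mean of double-null minus Hopx-null and Hdac2-null minus wild type; loss of Hopx and the interaction are built alike. The 6 genes, the lists and the tests were chosen with earlier results of these data known. Named genes are the 6 with all their probe sets, both targets and the 3 genes most correlated with each of the 6. From each list up to 4 were named (2 by smallest p for loss of Hdac2, 2 by highest mean signal), and not all are printed. The genes called over all 9667 were added, as were Cavin1 and Cavin3. The labels number the replicates 1 to 3. Same-numbered arrays deviated together at r over 0.1 in all 3 pairs only for Hopx-null with wild type (0.154 to 0.423) and Hdac2-null with Hopx-null (0.122 to 0.206). Alternatives were other floors, filters, normalization, probe sets, weights, a replicate block, Xist as a factor and leaving out each array. The number of arrays limits the precision.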

Additional observations from a re-analysis of the deposited data

How the results depend on the processing

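For loss of Hdac2, none of the 6 genes changed direction under any of the alternatives run, a direction that their choice already fixes. The values ran from -0.59 to -0.39 for Ctsc, -0.50 to -0.35 for Ank, -1.88 to -1.23 for Paqr9, -0.83 to -0.47 for Cavin4, -0.22 to -0.11 for Antxr2 and -0.81 to -0.13 for Klhl32. Klhl32 gave -0.81 with no floor and -0.56 with a floor of 32, against -0.25 with the floor used. The 2 calls for loss of Hdac2 became 4 probe sets of 3 genes with all single-gene probe sets and 5 genes with array weights, and 2 to 27 when 1 array was left out: 27 without wild type 3 and 4 without Hopx-null 3. These counts run over all genes tested, the 6 chosen genes among them, and are not read as tests of those 6. The single call for loss of Hopx became 2 with no floor and, with all probe sets, 2 probe sets of the 1 gene (1 to 2 with 1 array left out, 2 without wild type 2). Hopx-null against wild type likewise gave 2 with no floor and 2 probe sets of 1 gene. Double-null against Hdac2-null gave 3 probe sets of 2 genes with all probe sets and 951 genes with array weights. The interaction gave 0 to 1 with 1 array left out (1 without wild type 3). With the replicate block these counts were 2, 1, 1, 1 and 0 in the order given, and it changed no call. Differences near 0 changed sign. For loss of Hopx, Ctsc was 0.0047 with array weights, and Paqr9 was -0.0090 with no floor, -0.0090 with a floor of 32 and -0.037 with array weights; with 1 array left out they ran from -0.045 to 0.019 and from -0.20 to 0.17, and Cavin4 from -0.093 to 0.077. The Paqr9 interaction was -0.12 with array weights and -0.046 to 0.60 with 1 array left out. For Hopx-null against wild type, Ank was 0.0021 with quantile normalization, 0.022 with array weights and 0.013 with Xist as a factor (-0.12 to 0.061 with 1 array left out), Paqr9 was 0.021 with array weights (-0.50 to 0.14), and Cavin4 ran from -0.051 to 0.29. For double-null against Hdac2-null, Paqr9 was -0.096 with array weights (-0.096 to 0.42), and Ctsc ran from -0.030 to 0.098. The cause of these changes was not tested. The within-sex values were added after seeing the data. Signal near the floor limits Klhl32, with 4 of 12 arrays above the floor, and the second Paqr9 probe set, with 2.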

Other observations

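Another Paqr9 probe set, annotated to both C730029A08Rik and Paqr9, was not counted among the probe sets of a single gene, although the reference gene table lists both symbols for 1 gene. It read 3.999, 4.22 and 6.71 units on double-null and 4.62, 4.85 and 6.65 on Hdac2-null arrays, against 7.07, 13.4 and 15.4 on Hopx-null and 21.7, 23.3 and 8.32 on wild type arrays. All 12 values were below the floor of 82.5 units.

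Liver markers, 5 listed, summed to 617 units on Hdac2-null 3, against at most 175 on each other array.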
